A study of Saccharomyces cerevisiae with 12 samples.

Results

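The snR genes of budding yeast encode small stable RNAs of the nucleus: the small nucleolar RNAs (snoRNAs), which guide the modification and cleavage of ribosomal RNA, and most of the small nuclear RNAs (snRNAs) of the spliceosome. All rows whose identifier starts with snR were taken, 81 of the 7445 rows of the early table and the same 81 of the 7555 rows of the late table. By textbook class they comprised 47 box C/D snoRNAs, 29 box H/ACA snoRNAs and 5 spliceosomal snRNAs, and all 81 were found in the R64 annotation. The libraries came from BY4742, a haploid laboratory strain, grown in synthetic dextrose complete medium. They formed 4 groups of 3: early NaHS, which are cells given NaHS (a source of hydrogen sulfide) before 72 h after inoculation; early control, left untreated; late NaHS, which are cells given it after 72 h; and late control, left untreated. The labels give no dose and leave unsaid whether replicates are separate cultures, so every p measures only the spread between these libraries. Early values are TPM and late values FPKM, both scaled by gene length, and levels were compared only within a table. No read counts were analysed here, so the depth of each library is unknown.

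A box C/D snoRNA carries a box C near its 5′ end and a box D, with the letters CTGA in the gene, near its 3′ end. The stretch just before a box D pairs with ribosomal RNA, and the methylase of the particle modifies the ribosomal base paired to the fifth position upstream of the box. A box H/ACA snoRNA folds into hairpins, ends a few bases after the letters ACA, and guides the isomerization of uridine to pseudouridine. A few members direct cleavage of the ribosomal precursor: the U3 pair snR17a and snR17b, snR128, also called U14, snR30 and snR10. Others, snR4 and snR45, direct acetylation of 18S RNA. The annotation also assigns a modification site to snR10 (25S U2923) and to snR128 (18S C414).

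Most annotated sequences carried the letters of their classes. TGATGA, read on the RNA strand only and in the first 30 bases, was in 37 of 47 box C/D members, 1 of 29 box H/ACA members and 1.51% of 6021 protein-coding genes. CTGA in the last 15 bases was in 45 of 47 box C/D members, 1 of 29 box H/ACA members and 7.84% of protein-coding genes. ACA in the last 8 bases was in 17 of 29 box H/ACA members, 3 of 47 box C/D members and 5.73% of protein-coding genes. A stretch of at least 9 bases complementary to 18S or 25S RNA just before a CTGA was found in 29 box C/D members, and in 27 of them the base paired to the fifth position was a site that the annotation assigns to that snoRNA. The matches at these 27 sites were 10 to 16 bases long.

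The guide rule is shown by snR59 and snR39, which lie in introns of the ribosomal protein genes RPL7B and RPL7A and guide the same methylation, 25S A807, and by snR63, the box C/D member described below that rose with NaHS, which guides 25S A2256. Capitals mark TGATGA, the guide stretch and the CTGA after it, in DNA letters from the R64 reference. The last line is the stretch of the 25S gene around A807, with that base in capitals.
snR59 (chrXVI:173827-173904, plus strand): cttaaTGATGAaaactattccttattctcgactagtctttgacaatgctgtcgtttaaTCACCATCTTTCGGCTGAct
snR39 (chrVII:365163-365251, minus strand): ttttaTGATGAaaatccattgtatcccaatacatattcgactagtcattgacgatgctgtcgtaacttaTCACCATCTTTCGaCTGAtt
snR63 (chrIV:323217-323471, minus strand): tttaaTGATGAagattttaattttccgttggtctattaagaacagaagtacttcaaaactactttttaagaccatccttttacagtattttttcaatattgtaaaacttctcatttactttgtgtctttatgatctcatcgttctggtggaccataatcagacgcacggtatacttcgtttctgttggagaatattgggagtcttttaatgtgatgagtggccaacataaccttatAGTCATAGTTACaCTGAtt
25S site (chrXII:454363-454382, minus strand): gacccgaAagatggtgaact

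Which snR RNAs had values at all went with their length. Of the 81, 40 were listed at 0 in all 12 libraries, 39 of them box C/D snoRNAs and the other one snR6, the U6 snRNA that forms part of the catalytic centre of the spliceosome. These 40 were 78 to 136 bases long. In the late table all 41 members of up to 150 bases were listed at 0, and 40 of the 41 were so listed in the early table. The exception was snR64, 101 bases, which guides 25S C2337 and had 13.2, 4.52 and 3.68 TPM in early NaHS libraries, against 9.73, 18.4 and 12.5 TPM in early controls. Of the 40 members over 150 bases, 39 early and all 40 late had a value above 0 in some library. The exception was snR31, 225 bases, a guide for 18S U999, which was listed at 0 in all 6 early libraries yet had 618, 557 and 548 FPKM in late NaHS and 433, 1021 and 906 FPKM in late control. Other annotated genes whose identifier could be matched to a length were also listed at 0 more often when short, but with a more gradual change. Of those up to 150 bases, 92 of 97 early and 97 of 97 late were listed at 0 in all 6 libraries. At over 150 to 200 bases it was 20 of 63 early and 21 of 63 late. At over 200 to 300 bases it was 7 of 166 early and 21 of 166 late. Over 300 bases it was 45 of 5753 early and 675 of 5753 late. Most of the 299 tRNA entries are outside these counts, and 286 of the 299 early and all 299 late were listed at 0. Per the labels, the cDNA was size selected before sequencing, and the part of that step in the zeros was not tested. A value of 0 here therefore says only how a gene was listed. The early table also holds 319 entries with an identifier but no gene name or position, of which 22 were above 0. Of these, 10 carried exactly the 6 values of a member (snR3, snR4, snR8, snR33, snR35, snR43, snR70, snR82, snR161 and snR190), and the other 12, with means of 6.01 to 3888 TPM, carried those of none. Whether reads of the 10 members were divided between the entries, and whether any of the 12 stands for a member listed at 0 in the early table, was not tested.

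**Figure D1:**
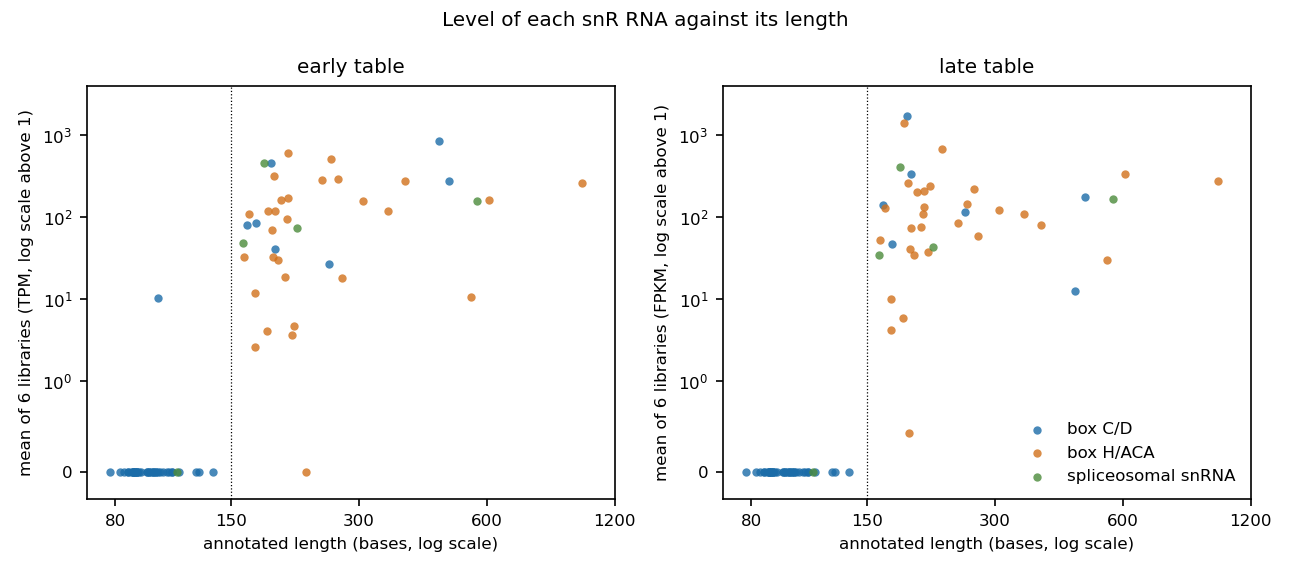
Mean of the 6 libraries of each table (TPM for the early table, left; FPKM for the late table, right; both on a log scale above 1) against annotated length for the 81 snR RNAs, with colour for class and a dotted line at 150 bases. Left of the line, 40 of 41 points (left panel) and 41 of 41 points (right panel) lie at 0.

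Members made from one precursor were split by the same boundary. The 5 runs of neighbouring members, listed as shared precursors from textbook knowledge, hold 17 snoRNAs, each run on one strand. Of the 17, 15 were listed at 0 in both tables. The 2 with values were the longest of their runs: snR190, 190 bases, beside snR128, 126 bases, and snR70, 164 bases, between snR41 and snR51. snR190, which guides 25S G2395, had 48.8, 33.9 and 47.6 TPM in early NaHS and 32.4, 52.7 and 28.4 TPM in early control, while its neighbour snR128, the essential U14 RNA, was listed at 0 throughout. snR70, a guide for 18S C1639, had 116, 50.6 and 76.8 TPM in early NaHS and 112, 70.3 and 52.7 TPM in early control, with the 2 groups overlapping. The sequences show the runs with unequal values and, last, snR64, the short member with early values, which is in none of the runs. Capitals mark TGATGA in the first 30 bases and CTGA in the last 15, and snR41 as annotated has neither.
snR190 (chrX:139761-139950, minus strand): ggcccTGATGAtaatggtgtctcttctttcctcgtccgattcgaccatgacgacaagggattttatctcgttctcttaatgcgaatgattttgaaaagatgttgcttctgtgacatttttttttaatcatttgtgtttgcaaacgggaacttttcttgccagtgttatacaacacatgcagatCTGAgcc
snR128 (chrX:139566-139691, minus strand): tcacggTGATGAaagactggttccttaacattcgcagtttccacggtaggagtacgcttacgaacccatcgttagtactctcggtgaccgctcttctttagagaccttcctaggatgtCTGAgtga
snR41 (chrXVI:719148-719242, minus strand): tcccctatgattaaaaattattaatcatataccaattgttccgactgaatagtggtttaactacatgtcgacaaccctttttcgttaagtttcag
snR70 (chrXVI:718887-719050, minus strand): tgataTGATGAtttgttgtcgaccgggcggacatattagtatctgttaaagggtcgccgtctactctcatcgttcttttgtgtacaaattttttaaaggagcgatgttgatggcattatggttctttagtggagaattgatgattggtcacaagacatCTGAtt
snR51 (chrXVI:718700-718806, minus strand): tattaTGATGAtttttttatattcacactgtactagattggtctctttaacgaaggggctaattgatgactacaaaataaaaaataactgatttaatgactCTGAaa
snR64 (chrXI:38811-38911, plus strand): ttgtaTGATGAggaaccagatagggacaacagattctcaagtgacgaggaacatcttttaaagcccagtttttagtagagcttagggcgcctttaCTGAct

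The annotation places 8 members in introns. Of these, snR18 in EFB1, snR24 in ASC1, snR38 in TEF4, snR39 in RPL7A, snR54 in IMD4 and snR59 in RPL7B, are box C/D snoRNAs of at most 102 bases, and all 6 were listed at 0 in both tables. The other 2 are the H/ACA snoRNAs snR44, 211 bases, in the ribosomal protein gene RPS22B, and snR191, 274 bases, in NOG2, a gene for a large-subunit assembly factor. snR44 had 0, 2.83 and 0 TPM in early NaHS and 8.94, 0 and 16.2 TPM in early control, and 156, 236 and 285 FPKM in late NaHS and 215, 324 and 239 FPKM in late control. It thus had at least 1 library at 0 in each early group and overlapping values in the late groups. snR191 had 16.2, 16.6 and 48.3 TPM in early NaHS and 13.3, 3.28 and 9.75 TPM in early control, which did not overlap, with a log2 change of 1.50 that missed the threshold of an adjusted p below 0.05 (SE 0.584, limma adjusted p = 0.0856). Its host NOG2 had a log2 change of 0.25 (SE 0.123, adjusted p = 0.157), and RPS22B one of 0.76 (SE 0.249, adjusted p = 0.0522).

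Among members with values, levels spanned over 2 orders of magnitude in each table, and the order differed between the tables. The 5 highest early means were those of snR17b (859 TPM), snR35 (616 TPM), which guides the hypermodified base 1191 of 18S RNA, snR11 (515 TPM), a guide for 25S U2416, snR4 (463 TPM) and snR7-S (457 TPM), the short form of U5. The 5 highest late means were those of snR4 (1715 FPKM), snR33 (1426 FPKM), a guide for 25S U1042, snR31 (680.5 FPKM), snR7-S (405 FPKM) and snR190 (341 FPKM). With the unnamed entry of equal values added to each of its 10 members, snR35 (1232 TPM) and snR4 (926 TPM) ranked above snR17b. On the deposited values snR17b ranked 1 of 81 in the early table and 36 in the late one. On the same values snR33 ranked 19 in the early table, or 13 with the unnamed entries added, and 2 in the late one. The tables differ in stage and in unit at once, so what changed the ranks cannot be told apart. snR4 was the highest member in each of the 6 late libraries, with 16.2% to 23.9% of the summed snR value.

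The summed snR value was 0.704%, 0.626% and 0.754% of the table's total in early NaHS libraries, against 0.634%, 0.676% and 0.569% in early controls. The early groups overlapped. In late NaHS libraries the sum was 0.396%, 0.387% and 0.356%, against 0.368%, 0.646% and 0.742% in late controls. Of the 3 late controls, 2 lay above every late NaHS library, and late control 1 lay among the NaHS libraries. The share of ribosomal RNA rows, which the labels do not describe as removed or kept, moved alongside: it was 0.328%, 0.312% and 0.259% in late NaHS and 0.267%, 0.959% and 3.60% in late control, and 1.70%, 1.44% and 3.20% in early NaHS and 0.872%, 1.18% and 0.757% in early control. Its part in the snR values was not tested. In bulk RNA, a change in an RNA per cell and a change in the total it is scaled to cannot be told apart.

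The early groups ask what NaHS did when it was given before 72 h. With NaHS 5 snR RNAs rose (snR4, snR46, snR63, snR81 and snR82) and 3 fell (snR17b, snR33 and snR161). Of the 81 members, 40 had a mean of at least 1 and were tested; 12.5% of these rose and 7.5% fell, where over all 6124 genes tested 10.1% rose and 28.5% fell. The median log2 change of the 40 was 0.27 beside -0.24 over all genes tested, and it was 0.15 without early control 3 and 0.28 to 0.36 without any other library. A log2 change is NaHS over control on the scale of log2(value + 1), and a gene rose or fell where its limma p, adjusted over all genes tested, was below 0.05. The 3 NaHS values lay above the 3 control values for 11 of the 40 and below them for 3, where 16.8% and 41.3% of all genes tested did so. By class, 2 of the 8 tested box C/D snoRNAs rose and 1 fell, 3 of the 28 tested box H/ACA snoRNAs rose and 2 fell, and none of the 4 tested snRNAs was called. At a minimum log2 change of 1, the calls left were those of snR63, snR81 and snR161. Among the 31 members above 0 in all 6 libraries, the log2 change ran from -0.98 in snR64 to 1.60 in snR81.

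Of the acetylation guides, snR4 rose. It had 522, 443 and 879.8 TPM in early NaHS libraries, against 311, 277 and 344 TPM in early controls. Every NaHS value exceeded every control value, and NaHS library 3 was far above the other two. The log2 change was 0.92 (SE 0.261, adjusted p = 0.0335). It missed the threshold without any 1 of the controls or without NaHS 1, with adjusted p between 0.0555 and 0.109. The other acetylation guide, snR45, had 59.7, 91.0 and 128 TPM in NaHS and 74.6, 70.6 and 86.7 TPM in control, overlapping, with a log2 change of 0.20 (SE 0.274, adjusted p = 0.587). The sequence of snR4 as annotated has the CTGA near its end, in capitals, and no TGATGA in its first 30 bases.
snR4 (chrV:424698-424883, plus strand): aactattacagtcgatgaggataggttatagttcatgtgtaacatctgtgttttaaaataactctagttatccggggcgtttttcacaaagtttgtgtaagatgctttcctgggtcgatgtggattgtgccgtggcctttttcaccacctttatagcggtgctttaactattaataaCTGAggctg

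Of the pseudouridine guides 3 rose. snR82, which is assigned 25S U1110, U2349 and U2351, had 343, 315 and 407 TPM in NaHS libraries and 226, 237 and 219 TPM in controls, a log2 change of 0.63 (SE 0.123, adjusted p = 0.00947). Its groups were well apart, and of the 19 alternatives run it lost the call at the minimum log2 change of 1 and kept it in the other 18, with adjusted p of at most 0.0435. snR46, which guides 25S U2865, had 189, 164 and 242 TPM in NaHS and 134, 117 and 120.2 TPM in control, a log2 change of 0.66 (SE 0.162, adjusted p = 0.0209), and missed the threshold without any 1 of the 3 controls (adjusted p 0.0531 to 0.0809). snR81, a guide for 25S U1052, had 32.3, 25.4 and 25.1 TPM in NaHS and 13.7, 9.99 and 4.05 TPM in control, a log2 change of 1.60 (SE 0.390, adjusted p = 0.0205). Its NaHS values were close together and the controls were further apart relative to their mean; without control 2 or NaHS 1 the adjusted p was 0.0516 or 0.0576.

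The methylation guide snR63 had 18.6, 34.5 and 66.7 TPM in NaHS libraries and 13.0, 11.1 and 15.6 TPM in controls, a log2 change of 1.36 (SE 0.433, adjusted p = 0.0490). The controls agreed closely while NaHS 3 stood well above NaHS 1. It missed the threshold without any 1 of the controls or without NaHS 2, with adjusted p of 0.0967 to 0.137, and with a pseudocount of 5, without the low-value filter or without the trend (adjusted p 0.0503 to 0.0527).

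Of the pseudouridine guides 2 fell. snR33, assigned 25S U1042, had 55.2, 104 and 85.3 TPM in NaHS libraries and 136, 120.3 and 205 TPM in controls, a log2 change of -0.92 (SE 0.294, adjusted p = 0.0498). The groups did not overlap, but the call was at the threshold and was lost without any of controls 1 to 3, NaHS 1 or NaHS 3 (adjusted p 0.0557 to 0.139) and after either rescaling described below (adjusted p 0.128 and 0.196). snR161, assigned 18S U632 and U766, had 6.55, 0 and 17.3 TPM in NaHS and 39.4, 48.1 and 85.8 TPM in control (adjusted p = 0.0397). NaHS library 2 was listed at 0, so no fold is given, and the call was lost without any 1 of the controls or without NaHS 1 (adjusted p 0.0660 to 0.121), with a pseudocount of 0.1 (0.0932), after either rescaling (0.0556 and 0.0643) and with its unnamed entry of equal values added (0.0546). The sequences of a pseudouridine guide that rose and one that fell both end on the class letters, with ACA in capitals.
snR46 (chrVII:545370-545566, plus strand): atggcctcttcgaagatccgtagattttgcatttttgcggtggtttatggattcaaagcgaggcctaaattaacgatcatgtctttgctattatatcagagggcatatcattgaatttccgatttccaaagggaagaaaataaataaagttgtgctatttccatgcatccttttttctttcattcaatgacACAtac
snR161 (chrII:307185-307345, minus strand): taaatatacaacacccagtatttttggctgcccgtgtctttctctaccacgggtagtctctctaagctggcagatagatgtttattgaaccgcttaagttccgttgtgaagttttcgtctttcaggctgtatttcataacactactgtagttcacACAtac

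The other H/ACA guides with steady early values gave no call. snR11 had 562, 548 and 511 TPM in NaHS libraries and 535, 523 and 409 TPM in controls (log2 change 0.15, SE 0.134, adjusted p = 0.394). snR86, the longest member at 1004 bases, which guides 25S U2314, had 265, 247 and 288 TPM in NaHS and 268.5, 252 and 266 TPM in control (log2 change 0.02, SE 0.101, adjusted p = 0.884). For both, the groups overlapped. snR84, a guide for 25S U2266, had 10.7, 11.2 and 17.7 TPM in NaHS and 9.19, 7.19 and 7.87 TPM in control, without overlap but short of the threshold (log2 change 0.62, SE 0.214, adjusted p = 0.0615). snR83, which guides 18S U1290 and U1415, was on the other side, with 144, 124 and 165 TPM in NaHS and 162, 173 and 168 TPM in control (log2 change -0.23, SE 0.130, adjusted p = 0.206).

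Several H/ACA guides were listed at 0 in some early libraries and well above 0 in others of the same group. snR9, which guides 25S U2340 and U2345, had 0, 102 and 83.7 TPM in NaHS and 0, 228 and 0 TPM in control. snR85, which guides 18S U1181, had 8.85, 25.7 and 15.7 TPM in NaHS and 0, 20.99 and 0 TPM in control. The groups overlapped for both, and neither passed the test (adjusted p = 0.635 and 0.146).

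**Figure D2:**
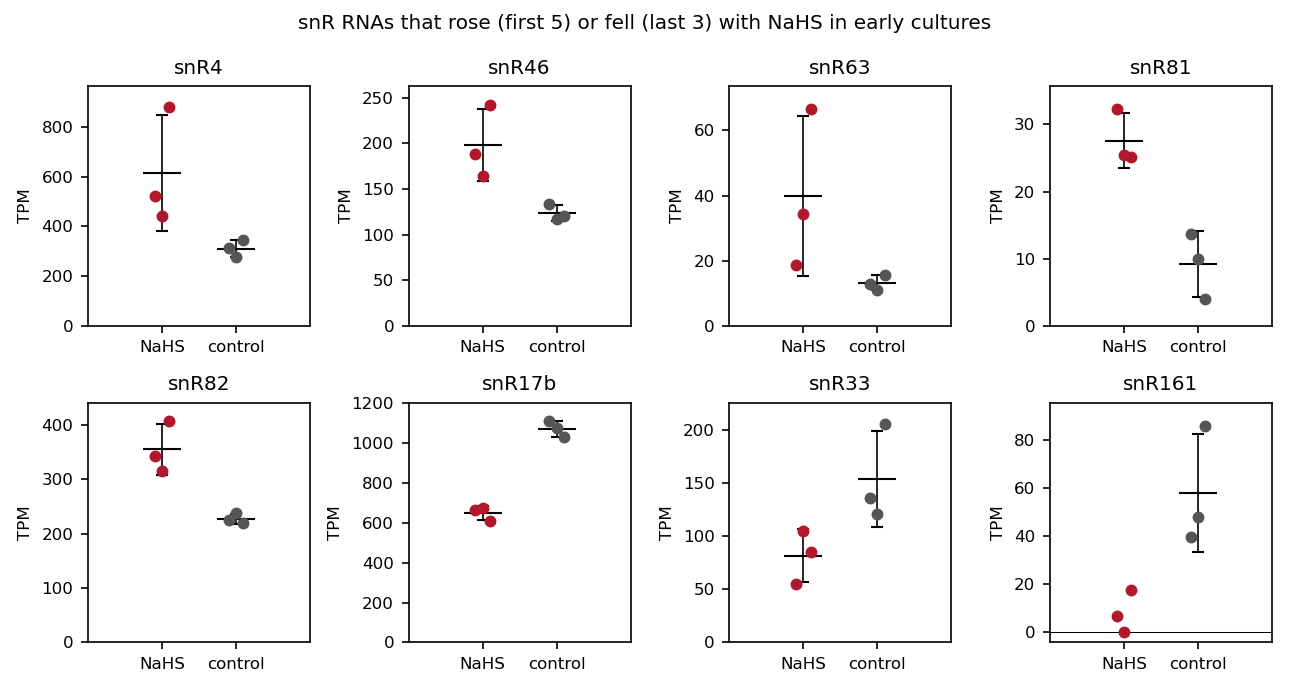
TPM in each early library for the 5 snR RNAs that rose and the 3 that fell with NaHS, with NaHS left and control right in each panel; points are libraries, the horizontal mark is the mean and the bars are 1 SD (n = 3), both left out for snR161 in NaHS, where 1 library is listed at 0. In every panel the 3 NaHS values and the 3 control values do not overlap.

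The calls depended on how libraries were scaled to one another. The median gene of the early table was shifted by -0.24, and under a median-ratio rescaling, which puts that median near 0, 11 members rose and 1 fell, while 17.4% of all genes rose and 18.3% fell. Under an upper-quartile rescaling 12 members rose and 1 fell, beside 19.7% and 15.3% of all genes. The one that fell under both was snR17b. Genes in and beside the CUP1 repeat held 9.40%, 10.7% and 4.73% of the total in early NaHS libraries, against 0.719%, 0.628% and 0.582% in early controls. Totals that leave out rRNA and a smaller set of these genes, those of the repeat itself, were a setting added after the data were seen. With these totals the median over all genes was -0.11. In that fit 10 members rose and 2 fell, beside 887 and 1332 of all 6149 genes. The part of the repeat alone was not tested. The share of all calls that were higher in NaHS was 26.1% on the deposited scale, 48.7% after the median-ratio step and 56.2% after the upper-quartile step. One member that passed after rescaling and missed the threshold on the deposited scale was snR35, which had 730.3, 586 and 861 TPM in NaHS and 572, 455 and 490.3 TPM in control (log2 change 0.51, SE 0.171, adjusted p = 0.0567 on the deposited scale, 0.0195 with median-ratio scaling). It also passed on the deposited scale without NaHS 2 (log2 change 0.65, adjusted p = 0.0284).

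U3, the RNA that directs the first cleavages of the ribosomal precursor, is encoded by 2 genes, snR17a on chromosome XV and snR17b on chromosome XVI, and in early cultures only snR17b passed the test, while snR17a differed in the other direction. snR17b had 665, 672 and 609 TPM in NaHS libraries and 1108, 1073 and 1029.5 TPM in controls, a log2 change of -0.72 (SE 0.0942, adjusted p = 0.00237). The groups were far apart, and of the 18 alternatives run the call was lost at the minimum log2 change of 1 and held in the other 17. snR17a had 326, 268 and 418 TPM in NaHS and 241, 237 and 180.0 TPM in control, also without overlap, in the other direction (log2 change 0.61, SE 0.201, adjusted p = 0.0544). It passed after the median-ratio step (adjusted p = 0.0221), after the upper-quartile step (adjusted p = 0.0245) and without NaHS 2 (adjusted p = 0.0349). snR17a made up 32.9%, 28.5% and 40.7% of the summed pair in NaHS libraries and 17.9%, 18.1% and 14.9% in controls. The sum of the pair was 986 ± 43.4 TPM in NaHS and 1290 ± 72.1 TPM in control (SD, n = 3 each), and its log2 change was -0.39 (SE 0.0962, adjusted p = 0.0220).

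The genes of the pair are alike, so reads can be hard to place. Over their whole annotated spans, 490 and 462 bases, the genes were identical at 400 of 452 aligned bases (88.5%). Their longest shared run was 77 bases. Any stretch absent from the mature RNA is included in these counts. Over the last 300 bases of each, 273 were identical (91%). No source used here says how the authors' counting treated reads that match both genes, so the split between them is uncertain and the sum is the firmer value. snR17a also overlaps IRC13 on the same strand, and IRC13 had at most 5.84 TPM in any early library. The last 140 bases of each RNA show how the copies differ: capitals mark the 20 bases that differ between them.
snR17a (chrXV:780457-780596, plus strand): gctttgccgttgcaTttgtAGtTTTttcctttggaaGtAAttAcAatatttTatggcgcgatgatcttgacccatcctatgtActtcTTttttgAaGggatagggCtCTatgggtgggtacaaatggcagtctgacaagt
snR17b (chrXVI:281056-281195, minus strand): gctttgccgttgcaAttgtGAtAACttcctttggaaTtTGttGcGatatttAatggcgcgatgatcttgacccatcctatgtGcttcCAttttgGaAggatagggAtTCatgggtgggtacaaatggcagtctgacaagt

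In the late table the pair looked different again. snR17b was listed at 0 in all 3 NaHS libraries and had 24.9, 18.5 and 32.2 FPKM in controls (adjusted p = 0.000180). The equal zeros have no spread, so the NaHS libraries add none to this p. The size of the change depends on the 1 added before the log, so no fold is given. snR17a had 36.2, 30.8 and 7.38 FPKM in NaHS and 27.0, 224 and 741 FPKM in control, with control 1 inside the NaHS range and control 3 the highest (log2 change -2.96, SE 1.20, adjusted p = 0.142). Without control 1 snR17a passed the threshold (log2 change -4.25, adjusted p = 0.0204). The summed pair had 36.2, 30.8 and 7.38 FPKM in NaHS and 51.9, 242 and 773 FPKM in control (log2 change -3.32, SE 1.02, adjusted p = 0.0726). The sum was lower in each NaHS library than in each control, and the spread between controls was wider than that between the groups' nearest values.

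**Figure D3:**
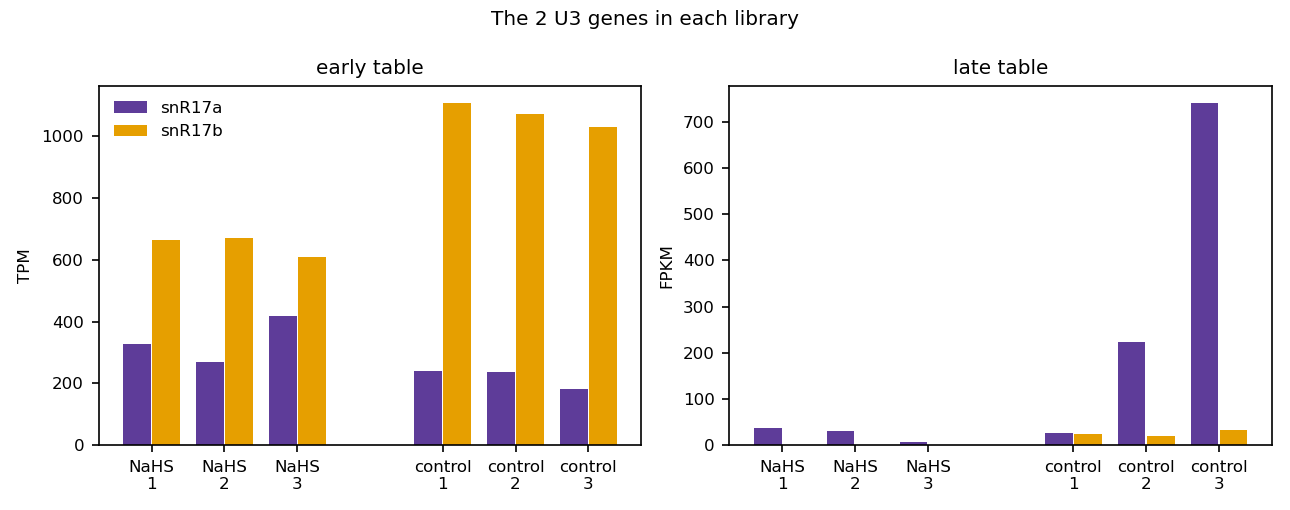
Values of the U3 genes snR17a and snR17b in each early library (TPM, left) and each late library (FPKM, right), with NaHS libraries left of control libraries; each bar is 1 library. Early snR17b bars are 609 to 672 in NaHS and 1029.5 to 1108 in control, and late snR17b is listed at 0 in the NaHS libraries.

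Of the other members that direct rRNA cleavage, snR10 and snR30 did not pass the test in either stage. The cleavage RNA snR128, listed at 0 throughout, was not tested. snR10 had 348, 281 and 303 TPM in early NaHS libraries and 268, 249 and 233 TPM in early controls, a log2 change of 0.31 (SE 0.12, adjusted p = 0.0853), without overlap between the groups. It passed with median-ratio scaling (log2 change 0.56, adjusted p = 0.0132). It overlaps the dubious reading frame YGL088W on the same strand, which was listed at 0 in 4 of the 6 early libraries and had at most 2.04 TPM. In the late table snR10 had 82.3, 102 and 62.1 FPKM in NaHS and 15.9, 142 and 104 FPKM in control, with the NaHS values inside the range of the controls. snR30 had 272, 103 and 227 TPM in early NaHS and 53.0, 227 and 84.0 TPM in early control, overlapping (log2 change 0.88, SE 0.597, adjusted p = 0.279). In late cultures snR30 had 327, 271 and 241 FPKM in NaHS and 184, 599 and 423 FPKM in control, again with control 1 the lowest (log2 change -0.37, SE 0.423, adjusted p = 0.571).

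Of the spliceosomal snRNAs, which assemble on introns and remove them, snR19 (U1, which pairs with the 5′ splice site) had a called change, in late cultures. It had 163, 155 and 199 TPM in early NaHS libraries and 149, 148 and 136 TPM in early controls, a small difference without overlap (log2 change 0.25, SE 0.127, adjusted p = 0.164). In late NaHS libraries it had 97.8, 108 and 80.2 FPKM, against 137, 304 and 262 FPKM in late controls, and it fell, with a log2 change of -1.22 (SE 0.319, adjusted p = 0.0476). No late NaHS value reached a control value, including that of control 1. The late call was lost when controls 2 or 3 or any 1 of the NaHS libraries was left out, with adjusted p of 0.0981 to 0.149 and a log2 change of -0.99 to -1.31, and with a pseudocount of 0.1, without the low-value filter or without the trend (adjusted p 0.0502 to 0.0531).

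The U5 RNA, which holds the exon ends together, is listed in a long form, snR7-L, and a short form, snR7-S, whose annotated positions nest, so their reads cannot be fully told apart. snR7-S had 536, 552 and 293 TPM in early NaHS and 441, 543 and 378 TPM in early control, and 133, 305 and 269.7 FPKM in late NaHS and 156, 669.8 and 898 FPKM in late control. The groups overlapped in both stages. snR7-L had 79.9, 54.8 and 35.2 TPM in early NaHS and 75.1, 98.9 and 95.3 TPM in early control, a log2 change of -0.72 that missed the threshold (SE 0.297, adjusted p = 0.0993) and passed without NaHS 1 (adjusted p = 0.0294). The summed forms had a log2 change of -0.12 in early cultures (SE 0.271, adjusted p = 0.758) and -0.99 in late ones (SE 0.675, adjusted p = 0.352). snR14, the U4 RNA that keeps U6 inactive until splicing starts, had 99.6, 0 and 90.6 TPM in early NaHS and 0, 99.3 and 0 TPM in early control, and 33.9, 0 and 41.2 FPKM in late NaHS and 85.3, 0 and 48.4 FPKM in late control. With 1 or 2 zeros in each group, its values show no order.

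The late groups ask what NaHS did when it was given after 72 h. No snR RNA rose and 3 fell: snR19 and the 2 that were listed at 0 in every NaHS library, snR17b and snR161. snR161 had 123, 146 and 46.3 FPKM in the controls (adjusted p = 0.000331). For snR17b and snR161 the equal zeros give the NaHS group no spread, and neither was tested when genes with a 0 were left out. Of the 81 members 39 were tested, and 7.69% of them were called, where 5.28% of all 5344 genes tested rose and 9.99% fell. At an unadjusted p below 0.05, no tested member was higher and 7 of the 39 were lower, where 15% and 17.7% of all genes tested were. The median log2 change of the 39 was -0.58 beside 0.05 over all genes tested, and 33 of the 39 had a negative one. Among the 30 members above 0 in all 6 libraries, it ran from -2.96 in snR17a to 0.59 in snR84. The NaHS values lay below all control values for 5 members and above them for none, where 19.8% and 18.8% of all genes tested did so. snR5, a guide for 25S U1004 and U1124, and snR8, a guide for 25S U960 and U986, were the 2 of the 5 not called.

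The late controls differed among themselves. Of the 30 members above 0 in all 6 late libraries, control 1 was the lowest control for 26. The median log2 distance of these 30 from their mean in NaHS libraries was -0.25 in control 1, 1.27 in control 2 and 0.74 in control 3, while the same median over 4965 genes above 0 in all late libraries lay between -0.05 and -0.02 in the 3 controls. Control 1 lay below every NaHS value for 14 of the 30 and above every one for 4; control 2 lay above every NaHS value for 27 and control 3 for 25. The highest member, snR4, had 1308, 1495 and 1400.2 FPKM in late NaHS and 1326, 2794 and 1967 FPKM in late control, a log2 change of -0.47 (SE 0.280, adjusted p = 0.289), and snR33 had 1021, 1155 and 1276 FPKM in NaHS and 1017, 2382 and 1704 FPKM in control (log2 change -0.49, SE 0.317, adjusted p = 0.331). For both, controls 2 and 3 exceeded every NaHS library and control 1 did not. snR190 had 97.6, 39.9 and 89.3 FPKM in NaHS and 96.6, 484 and 1237 FPKM in control (log2 change -2.44, SE 0.893, adjusted p = 0.113).

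Without late control 1, 11 tested members fell, with snR17a, snR7-S, snR7-L, snR31, snR37, snR46, snR83 and snR190 added to the 3, and the median log2 change was -0.90; 10.9% of all genes tested fell in that fit. Without late control 2 the median was -0.27 and 2 members fell, and without late control 3 it was -0.38 and 2 fell. The number of snR RNAs called in late cultures therefore rested on which control was kept. SCR1, the RNA of the signal recognition particle and no member, put the late controls in the same order as the rRNA share did: it had 27.0, 24.99 and 21.4 FPKM in late NaHS and 26.4, 182 and 586 FPKM in late control. The part of ribosomal RNA content in the difference between controls was not tested.

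**Figure D4:**
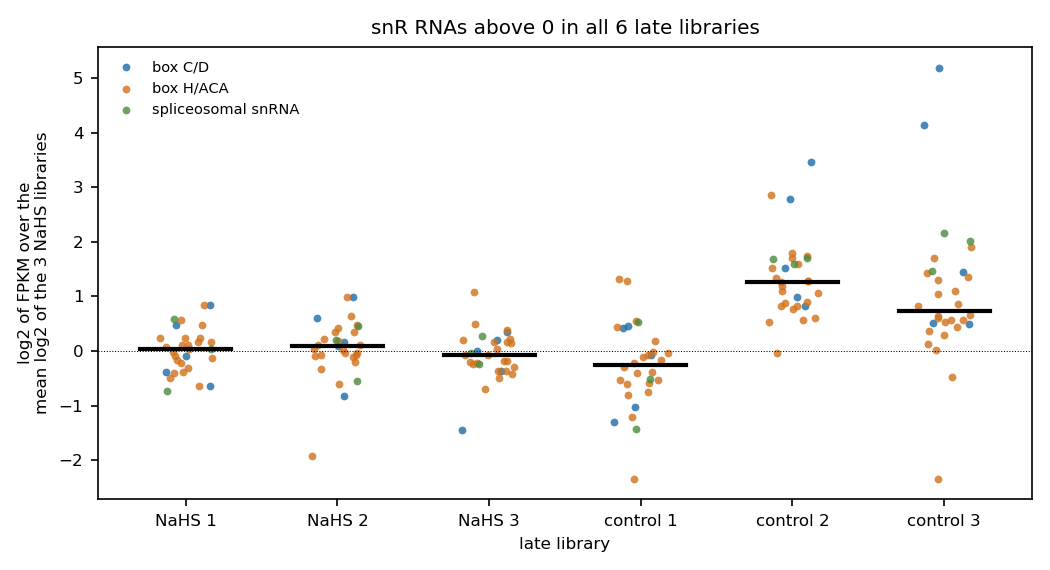
Each point is 1 of the 30 snR RNAs above 0 in all 6 late libraries, placed at its log2 FPKM minus its mean log2 FPKM in the 3 late NaHS libraries; NaHS libraries are left, controls right, colour is class and the line is the median. The medians of controls 1, 2 and 3 are -0.25, 1.27 and 0.74.

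The difference between stages was tested as the late NaHS effect minus the early one, on the 38 members that passed the filter in both tables. Of these 5 were lower and none higher, where over all 5165 genes tested 7.55% were lower and 15.2% higher; at an unadjusted p below 0.05 none of the 38 was higher and 11 were lower, where 25.7% and 11.8% of all genes were. The median over the 38 was -1.05, beside 0.25 over all genes tested. The pseudouridine guide snR81 rose early and had 38.2, 46.7 and 71.0 FPKM in late NaHS against 68.1, 174 and 51.1 FPKM in late control, a difference of -2.35 (SE 0.667, adjusted p = 0.0284). snR4 had a difference of -1.39 (SE 0.409, adjusted p = 0.0320) and snR19 one of -1.47 (SE 0.365, adjusted p = 0.0161). In each of these the early change was positive and the late one negative.

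snR5 passed in neither stage and in the difference. It had 174, 181 and 211 TPM in early NaHS and 184, 165 and 119 TPM in early control, overlapping, with a log2 change of 0.29 (SE 0.185, adjusted p = 0.252). In late cultures it had 112, 111 and 88.9 FPKM in NaHS and 151, 189 and 139 FPKM in control, not overlapping (log2 change -0.61, SE 0.188, adjusted p = 0.0724), and the difference was -0.90 (SE 0.269, adjusted p = 0.0338). snR17b also passed in the difference (adjusted p = 5.16e-06), with late NaHS values all listed at 0, which adds no spread from that group. The summed U3 pair did not pass in the difference (-2.94, SE 1.14, adjusted p = 0.0856). The call of snR19 in the difference held under each of the 25 alternatives run, with adjusted p of at most 0.0428, and so did that of snR17b, as an entry of its own, under 23. The calls of snR81, snR4 and snR5 were lost without 1 or another of 4, 7 and 6 single libraries: for snR81, early NaHS 1, early control 3 and late NaHS 1 and 2 (adjusted p 0.0541 to 0.0627); for snR4, early NaHS 3, any early control, late NaHS 1 and 3 and late control 3 (0.0501 to 0.0777); for snR5, early NaHS 2 and 3, early controls 2 and 3, late NaHS 3 and late control 2 (0.0526 to 0.0808). The call of snR5 was also lost at a minimum log2 change of 1. Without late control 1, 16 of the 38 were lower, beside 8.52% of all genes.

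**Figure D5:**
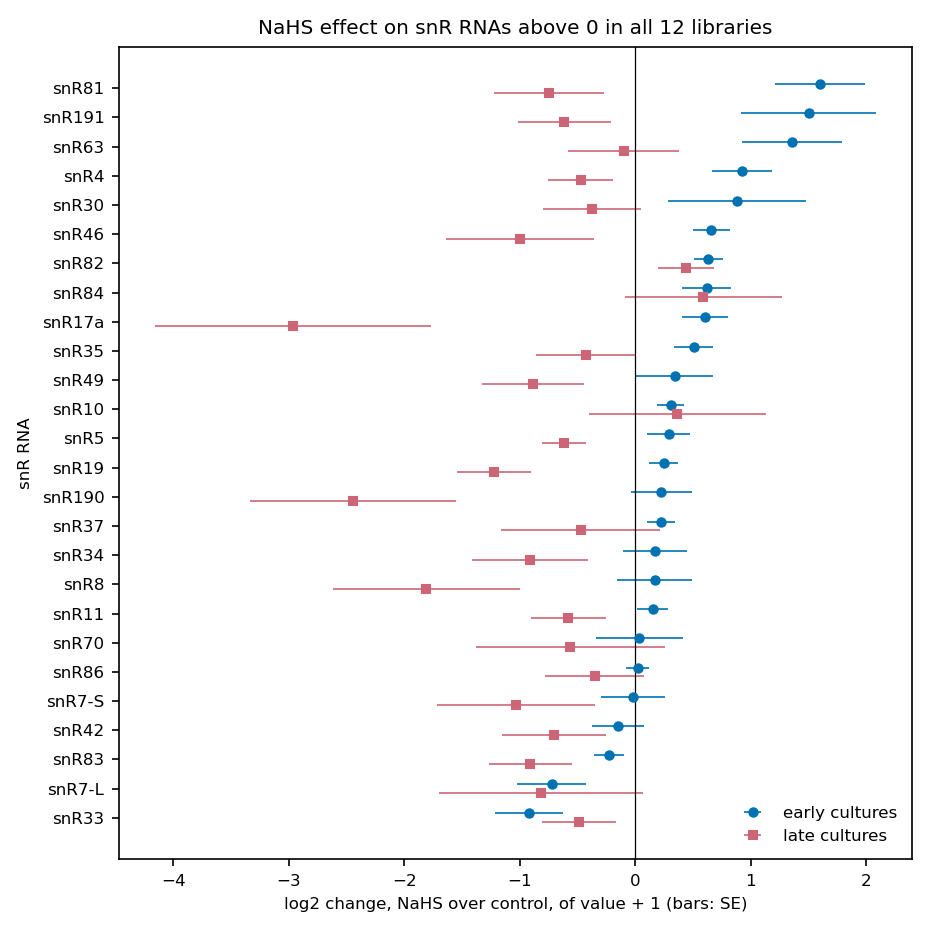
Log2 change, NaHS over control, of the value plus 1, with its SE, in early cultures (circles) and late cultures (squares) for the 26 snR RNAs above 0 in all 12 libraries, ordered by the early change. The early change is positive for 21 of the 26 and the late change negative for 23.

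The same libraries give the other structural RNAs that are not named snR. LSR1, the U2 snRNA that pairs with the branch point, rose in early cultures with 482, 413 and 639.5 TPM in NaHS against 289.9, 305 and 273 TPM in control (log2 change 0.80, SE 0.172, adjusted p = 0.0135). NME1, the RNA of RNase MRP, which cleaves the ribosomal precursor, fell with 52.8, 59.3 and 57.2 TPM against 101, 103 and 98.6 TPM (log2 change -0.83, SE 0.0986, adjusted p = 0.00171). TLC1, the telomerase RNA, fell too (log2 change -0.56, SE 0.123, adjusted p = 0.0146). Thus 1 of the 4 tested rose and 2 fell, where 10.1% of all genes tested rose and 28.5% fell. In late cultures NME1 was listed at 0 in every NaHS library, which gives that group no spread. In control it had 5.03, 14.8 and 36.9 FPKM (adjusted p = 0.00855). It was the 1 of 5 tested to fall, where 9.99% of all genes tested fell.

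The 8 host genes of intronic snoRNAs gave 0 risen and 3 fallen in early cultures, where 10.1% of all genes tested rose and 28.5% fell. The ribosome-bound protein gene ASC1, host of snR24, had 73.7, 56.4 and 59.6 TPM in NaHS against 242, 267 and 316 TPM in control (log2 change -2.10, SE 0.154, adjusted p = 0.000468). TEF4, a translation elongation factor gene and host of snR38, had a log2 change of -1.35 (SE 0.165, adjusted p = 0.00188), and RPL7A, host of snR39, one of -0.74 (SE 0.128, adjusted p = 0.00625). The snoRNAs of these 3 introns were listed at 0, so host and snoRNA could not be compared. In late cultures 1 of the 8 rose, RPL7B, the host of snR59 (log2 change 0.87, SE 0.211, adjusted p = 0.0375), and none fell. Over all genes tested late, 5.28% rose and 9.99% fell.

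Genes for the proteins of the particles are set beside all genes tested, of which 10.1% rose and 28.5% fell early. In late cultures 5.28% of all genes tested rose and 9.99% fell. Of the 4 core proteins of box C/D particles, SNU13, which binds the box C/D fold and the U4 RNA, rose in early cultures with 136, 109 and 166 TPM in NaHS against 50.3, 51.8 and 63.0 TPM in control (log2 change 1.29, SE 0.183, adjusted p = 0.00311), and none was called in late cultures. Of the 4 core proteins of box H/ACA particles, CBF5, the pseudouridine synthase, rose in early cultures (log2 change 0.89, SE 0.150, adjusted p = 0.00564) and NHP2 in late ones (log2 change 0.85, SE 0.210, adjusted p = 0.0390). Among 9 assembly genes, NAF1, needed to assemble H/ACA particles, had 74.9, 70.9 and 96.3 TPM in early NaHS against 30.7, 28.8 and 29.7 TPM in control (log2 change 1.40, SE 0.142, adjusted p = 0.00102), and HIT1, which helps assemble box C/D particles, rose as well (log2 change 0.78, adjusted p = 0.00484). PIH1 and RVB2, of the chaperone complex that builds box C/D particles, fell by 1.46 and 0.52 on the log2 scale (adjusted p = 0.00967 and 0.0369), and none of the 7 tested late was called.

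Of 18 genes for snoRNA processing and transcription termination, 2 rose and 4 fell in early cultures, against 10.1% and 28.5% of all genes tested, and none was called in late ones. RNT1, the RNase III that cuts snoRNA precursors, rose by 0.63 (adjusted p = 0.0330) and LSM7, of the ring that binds U6, by 0.61 (adjusted p = 0.0379) on the log2 scale, while the termination factors SEN1 and NRD1 fell by 0.95 and 0.89 (adjusted p = 0.00536 and 0.0022). LSM8 and LSM3, of the same ring, fell by 0.81 and 0.72 (adjusted p = 0.00297 and 0.0216). Of 17 snRNP protein genes tested early, LEA1 (U2) and MUD1 (U1) rose by 1.13 and 0.85 on the log2 scale (adjusted p = 0.000767 and 0.0170) and 6 fell, the 4 largest being SMX2, SMD1 and SMD3, of the Sm ring shared by most snRNPs, at log2 changes of -0.90, -0.69 and -0.59, and PRP4, of the U4/U6 particle, at -0.76. In late cultures 2 of 16 tested rose, MUD1 (log2 change 0.91, adjusted p = 0.0261) and SMX3 (log2 change 0.81, adjusted p = 0.0255). Over all genes tested late, 5.28% rose and 9.99% fell. The median early log2 change was -0.18 over the processing genes and -0.05 over the snRNP genes, beside -0.24 over all genes tested.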

How the data were processed

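RNA of 12 libraries (3 in each of 4 groups) came from TRIzol extraction and DNase I treatment and was made into TruSeq libraries, per the labels' protocols, which name SeqPrep and Sickle for trimming and TopHat for alignment. Bowtie 0.12.2 and R64 are named per the submitters' processing notes. The sources used here name neither the quantifier nor its annotation or strand setting. The authors deposited TPM for the early table, a unit read from its values, and FPKM for the late table, per the file headers. Without counts the depth and counting error are unknown.

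Values were turned into log2(value + 1). Where the mean over a comparison's 6 libraries reached 1, genes entered limma 3.58.1 (R 4.3.3; trend; 2-sided; no covariate), entries that name no gene (319 early, 429 late) left out, and Benjamini-Hochberg adjustment ran over the whole set tested. The plan had named a count test first, which these units do not allow. The difference between stages is the interaction term over all 12 libraries on genes tested in both tables. The script was tested on simulated data. Lengths, introns, sites and sequences come from the RefSeq R64 genome and annotation.

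The members and gene lists were chosen with earlier results of these data known. Named are members called in a stage or in the difference, the snRNAs, the cleavage, acetylation and intron-hosted snoRNAs, the 5 highest members of each table, and up to 4 called genes per direction of each other list. snR8, snR64 and other members named beyond these were chosen after their values were seen, as examples or exceptions. Alternatives were pseudocounts of 0.1 and 5, a minimum log2 change of 1, no filter on low values, a filter at a mean of 10, 2 rescalings, a replicate block, no trend, genes with a 0 left out and each library left out in turn. After the data were seen, summing the U3 copies and U5 forms, and totals without rRNA and the CUP1 repeat, were added, as was adding unnamed early entries to the members whose values they equal.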

Additional observations from a re-analysis of the deposited data

Results flagged for a closer look

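For 5 snR RNAs the NaHS effect differed between the stages by the limma interaction term (late minus early, adjusted over 5165 genes). snR17b, one of the U3 genes, had an adjusted p of 5.16e-06. It fell in early cultures and was listed at 0 in all late NaHS libraries, which add no spread to that p. The split of reads between the U3 genes is uncertain, and the summed pair missed the threshold in the difference (-2.94, SE 1.14, adjusted p = 0.0856). snR19, the U1 RNA, had an adjusted p of 0.0161, with a log2 change of 0.25 early and -1.22 late. snR81 had an adjusted p of 0.0284, with 1.60 early and -0.74 late. snR4 had an adjusted p of 0.032, with 0.92 early and -0.47 late. snR5 had an adjusted p of 0.0338, with 0.29 early and -0.61 late. Each effect was taken within its own table, and the tables carry different units. Groups of 3 libraries are too small to be tested for single outlying values.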

How the results depend on the processing

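With the deposited scaling 5 members rose and 3 fell early. Those that rose numbered 11 with median-ratio scaling, 12 with upper-quartile scaling, 10 with totals that leave out rRNA and the CUP1 repeat (chosen after seeing the data) and 2 at a minimum log2 change of 1. Those that fell numbered 1 with a pseudocount of 0.1, 1 with median-ratio scaling, 1 with upper-quartile scaling and 1 at a minimum log2 change of 1. The members' early median log2 change of 0.27 became 0.49 after the median-ratio step and 0.59 after the upper-quartile step, with all genes at -0.01 and 0.08. All genes called early were 2359, and 935 at a minimum log2 change of 1. Late, 3 members fell, and 1 when genes with a 0 were left out. Leaving out each library in turn gave 2 to 6 members risen and 1 to 3 fallen early, with 1389 to 3253 genes called; 0 to 1 risen and 2 to 11 fallen late, with 413 to 871 genes called; and 0 to 1 higher and 2 to 16 lower for the difference. The 11 and the 16 came without late control 1. With 1 library left out, the genes called went both below and above the 2359 early and 816 late of the main fits. The causes of these shifts were not tested.

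Same-numbered NaHS and control libraries did not deviate together (correlations of -0.03, -0.02 and -0.03 early and -0.13, 0.08 and 0.05 late). Late libraries of different number reached 0.20 and -0.22. With groups of 3, such values cannot show whether same-numbered libraries were prepared together, and the main fits did not pair them. A replicate block gave 1860 genes called early, 487 late and 839 for the difference, with 5 members risen and 2 fallen early, 2 fallen late and 5 lower in the difference. With the block, snR33 (early), snR19 (late) and snR5 (difference) missed the threshold and snR191 passed in the difference. Over all tested members and comparisons, 69 of 2354 alternative values lost a call, 55 gained one and none reversed. Only results called in the main fits could lose a call, so the 2354 are no base for the 69. Among the called results, the early call of snR33 was lost in 13 of 19 alternatives. The late call of snR19 was lost in 9 of 18 and that of snR17b in 0 of 16. These 16 do not hold the fit without genes with a 0 or the fit of the summed U3 pair. The summed pair missed the threshold in late cultures (limma adjusted p = 0.0726). Without counts, what depth limits cannot be given; the median SE of the tested members was 0.29 early and 0.48 late, beside 0.17 and 0.24 over all genes tested.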
